A study of Mus musculus with 4 samples.

Results

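The genes described here carry the fibroblast growth factor (FGF) signal into a cartilage cell and switch it off again. They are the receptors Fgfr1, Fgfr2, Fgfr3 and Fgfrl1, the ligands Fgf2, Fgf7 and Fgf18, and the feedback inhibitors Spry1, Spry2 and Spry4. The set of 10 genes, of 21900 protein-coding genes in the RefSeq table, was chosen by symbol, with earlier results of these data known. Its peaks are the entries of each list in which the authors gave one of these symbols. This found 22 of 56695 chondrocyte peaks and 0 of 1050 chondroprogenitor peaks.

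FGF ligands bind receptor tyrosine kinases at the cell surface, and the activated receptor docks adaptor proteins that lead to RAS and the ERK kinases. Sprouty proteins are switched on by that signal and dampen it. In growth cartilage Fgf18 and Fgfr3 are known for restraining the proliferation of chondrocytes, and activating mutations of FGFR3 cause achondroplasia in humans. Fgfrl1 lacks the kinase domain of the other receptors. 5-hydroxymethylcytosine (5hmC) arises when TET enzymes oxidise 5-methylcytosine, mostly at CpG dinucleotides.

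Genomic DNA came from ATDC5, a mouse chondrogenic cell line whose chondroprogenitors become chondrocytes after a supplement of insulin, transferrin and selenite, and gave 4 libraries. There were 2 chondrocyte libraries, labelled day 19 and day 20, and 2 chondroprogenitor libraries, labelled day 0. All cells were grown in DMEM/F12 with fetal bovine serum, L-glutamine, antibiotic-antimycotic and ascorbic acid, 5hmC-bearing DNA was captured with a chemical kit, and the deposited data were 1 list of peak positions per stage, made from merged libraries. A peak had to pass a 10-fold enrichment, over a background that the sources used here do not name, so a gene without a listed peak had none past that limit and may still carry 5hmC. No replicate spread, read depth, peak height or p-value was at hand, and no comparison below carries a test. The cell label could only be set beside the peaks of chondrocyte marker genes, since expression was not measured. In the chondrocyte list Sox9 had 3 peaks by the authors' symbol, Col2a1 had 1, Acan had 4 and Col10a1 had 0, and in the chondroprogenitor list Sox9 had 1 and the other 3 genes had 0. By overlap with the gene body Sox9, Col2a1 and Col10a1 had 1 chondrocyte peak each and Acan had 4. At least 1 peak by symbol was found in 43.9% of all protein-coding genes in the chondrocyte list and in 1.81% in the chondroprogenitor list, so these counts do not identify the cell type.

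The starts of these genes were read from RefSeq promoter windows of 300 bp (GRCm38.p6, 250 bp before to 50 bp after the annotated start), which matched 8 of the 10 genes, Fgfr3 with 2 windows. Fgfr1 and Spry4 had no entry. Of these 9 windows only that of Fgfr2 was overlapped by a chondrocyte peak, and none by a chondroprogenitor peak. Over all 32851 windows, 4.70% were overlapped in the chondrocyte list and 0.0457% in the chondroprogenitor list. The sequences below are those of Fgfr2, of the receptor Fgfrl1 and the ligand Fgf18, whose nearest peaks stopped just short of the window, and of Spry1, which had no peak near its start. They are written 5′ to 3′ along the gene's strand, and capitals mark each CpG, the motif CG, which reads the same on both strands and occurs in 94.6% of all windows.
Fgfr2, chr7:130266759-130267058, minus strand: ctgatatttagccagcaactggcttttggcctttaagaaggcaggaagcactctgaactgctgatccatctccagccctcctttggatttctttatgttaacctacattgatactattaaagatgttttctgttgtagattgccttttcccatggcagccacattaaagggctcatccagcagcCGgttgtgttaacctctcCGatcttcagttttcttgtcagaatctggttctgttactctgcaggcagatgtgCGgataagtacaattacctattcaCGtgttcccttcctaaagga
Fgfrl1, chr5:108693979-108694278, plus strand: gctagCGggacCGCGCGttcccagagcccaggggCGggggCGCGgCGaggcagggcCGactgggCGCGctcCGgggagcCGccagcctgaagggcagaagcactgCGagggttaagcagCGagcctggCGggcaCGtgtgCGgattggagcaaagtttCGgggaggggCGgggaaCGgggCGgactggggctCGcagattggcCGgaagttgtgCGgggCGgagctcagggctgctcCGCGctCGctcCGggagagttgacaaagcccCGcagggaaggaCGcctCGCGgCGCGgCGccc
Fgf18, chr11:33147351-33147650, minus strand: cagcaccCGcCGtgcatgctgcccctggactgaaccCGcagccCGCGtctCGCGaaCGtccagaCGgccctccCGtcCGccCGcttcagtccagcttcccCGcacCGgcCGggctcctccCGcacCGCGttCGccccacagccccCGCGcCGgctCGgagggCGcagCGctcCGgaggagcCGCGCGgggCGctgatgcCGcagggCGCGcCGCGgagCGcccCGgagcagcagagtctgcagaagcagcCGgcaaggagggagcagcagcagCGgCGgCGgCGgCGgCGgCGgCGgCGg
Spry1, chr3:37639697-37639996, plus strand: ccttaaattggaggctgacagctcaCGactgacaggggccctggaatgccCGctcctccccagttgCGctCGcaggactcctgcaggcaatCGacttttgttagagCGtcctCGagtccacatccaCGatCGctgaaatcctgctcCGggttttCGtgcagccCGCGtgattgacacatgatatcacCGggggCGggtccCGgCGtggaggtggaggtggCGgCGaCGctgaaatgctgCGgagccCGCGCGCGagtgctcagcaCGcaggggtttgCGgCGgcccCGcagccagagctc

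The Fgfr2 window held 4 CpGs, against a median of 7 over all windows, and 68.6% of windows held at least as many. The chondrocyte peak chr7:130266410-130266934 covered its bases 125 to 300, counted from the 5′ end, and all 4 CpGs lie in that stretch. Fgfrl1 held 37 CpGs, a number reached by 5.58% of windows, and its nearest chondrocyte peak ended 543 bp before the gene start. Fgf18 held 47, reached by 1.44%, and its nearest peak began 587 bp before the start. Spry1 held 29 CpGs and Spry2 held 28, the windows of Fgfr3 held 26 and 30, Fgf2 held 24 and Fgf7 held 11. So the window under a peak was the poorest in CpG of the 9. Across all windows, chondrocyte peaks overlapped 4.93% of those with 0 to 5 CpGs (Wilson 95% interval 4.59 to 5.30%) and 8.98% with 6 to 10 (8.21 to 9.80%). They overlapped 4.06% with 11 to 20 (3.57 to 4.62%), 2.37% with 21 to 30 (1.97 to 2.85%) and 1.79% with 31 or more (1.4 to 2.28%). All intervals here cover counting error only, and neighbouring windows can share a peak.

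By total peak number the roles differed in the chondrocyte list. The receptors had 13 peaks, with at least 1 for each of the 4 genes, the ligands had 9, again with at least 1 for each of the 3, and the Sprouty genes had none. Thus 7 of 10 genes had a chondrocyte peak (70.0%, Wilson 95% interval 39.7 to 89.2%), against 43.9% of all protein-coding genes. The genes were chosen with earlier results of these data known, so this share describes the set and tests nothing. Longer genes more often have a peak, and protein-coding genes in the same length deciles as the 10 had a peak in 50.3% on average. In the chondroprogenitor list 0 of 10 had a peak, against 1.81% of all protein-coding genes, so that absence is the usual case. By overlap with the gene body 5 of 10 had a chondrocyte peak, against 40.5% of all protein-coding genes, and with 5 kb added on both sides 7 of 10, against 50.8%. In the chondroprogenitor list both counts were 0 of 10, against 1.76% by gene body and 2.27% with 5 kb added. The median number of chondrocyte peaks by symbol was 1.5 over the 10 genes and 0 over all protein-coding genes. By role the median was 2.5 for receptors, 4 for ligands and 0 for Sprouty genes, so receptors led ligands in total and not in the median. Fgfr2 alone had 7 of the 13 receptor peaks. The gene bodies summed to 189 kb for receptors, 149 kb for ligands and 24.6 kb for Sprouty genes.

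**Figure D1:**
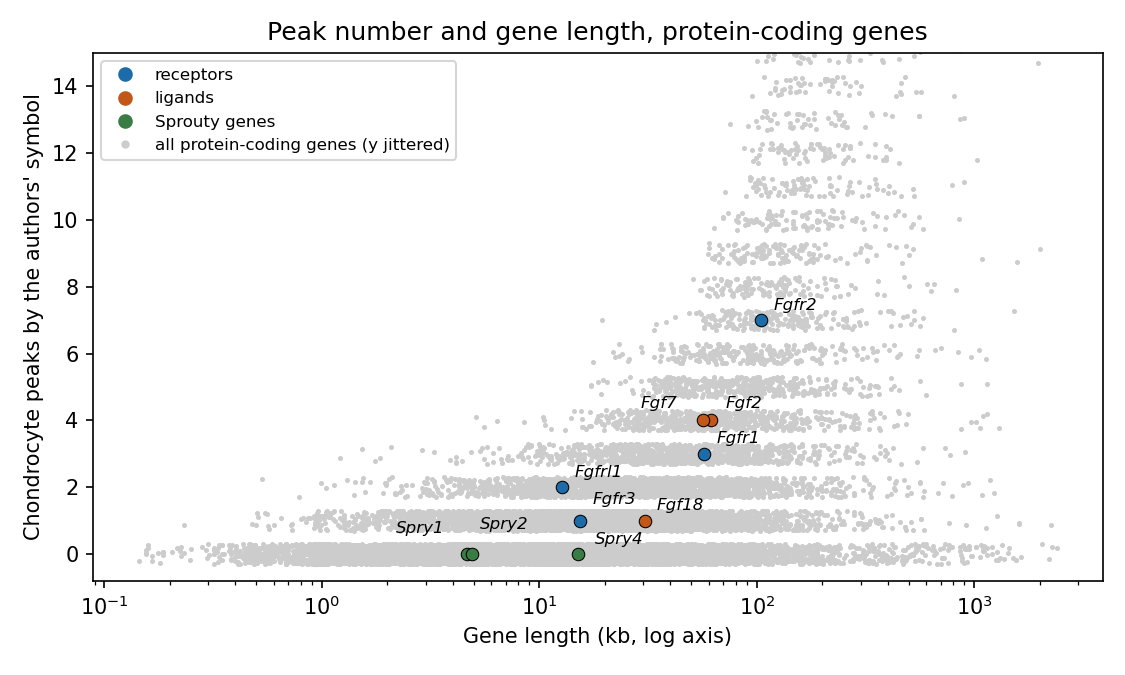
Chondrocyte peaks by the authors' symbol (vertical axis, number) against gene length (horizontal axis, kb, log scale) for the 10 genes and the 21900 protein-coding genes in grey, jittered vertically. The vertical axis ends at 15, so any gene with more peaks lies outside the plot. Fgfr2 lies highest of the 10 with 7 peaks, and the 3 Sprouty genes lie at 0 and include the 2 shortest genes.

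Fgfr2, the receptor that Fgf7 activates through one of its splice forms, had the most peaks of the set. Its 7 chondrocyte peaks were spread along the gene, a span of 104 kb on chromosome 7 (130162451 to 130266808). Their midpoints lay 0.136, 5.96, 13.7, 39.4, 62.2, 92.1 and 99.4 kb past the gene start. The first therefore lay on the start and 2 more lay within the first 15% of the gene, while the last 2 lay in its final 15%. In the chondroprogenitor list the gene had none. The widest, chr7:130173883-130175483, spanned 1601 bp, and 97.9% of all chondrocyte peaks were narrower. Fgfr2 had at least as many peaks as most genes of its size: 11.4% of protein-coding genes in its length decile had 7 or more, and the median there was 2. Over the 2 lists, 207 other protein-coding genes had the same counts in the gene body, 7 chondrocyte peaks and 0 chondroprogenitor peaks, and the nearest in length were Gm765 and C1qtnf7.

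Fgfr1, the receptor best known in the growth plate from hypertrophic cells, had 3 chondrocyte peaks in its 57.0 kb on chromosome 8 (25518759 to 25575718) and no chondroprogenitor peak. They lay 17.4, 24.5 and 41.7 kb from the lower gene boundary, since the tables used here gave no strand for this gene. The first, chr8:25535021-25537253, was the widest peak of the set with 2233 bp, and 99.6% of chondrocyte peaks were narrower. The first 2 also lie in Gm31288, a long noncoding RNA gene that overlaps Fgfr1, so these positions belong to both. In its length decile 24.4% of genes had 3 or more peaks.

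Fgfr3 had 1 chondrocyte peak by symbol and none inside the gene, which spans 15.3 kb on chromosome 5 (33721724 to 33737068). That peak, chr5:33716618-33717408, was 791 bp wide and ended 4.32 kb before the start. Farther out lay 4 more peaks without a gene symbol, which ended 15.1, 26.7, 36.5 and 46.8 kb before the gene start. The stretch before Fgfr3 thus held 5 peaks spaced over nearly the whole 50 kb, and the gene itself held none. Over all genes with a known strand, 89.4% of chondrocyte peaks with a symbol lay inside the gene they were assigned to, 8.46% before its start and 2.12% past its end. The gap was at most 7.64 kb before the start and 1.74 kb past the end for 99% of the peaks on each side. The authors' symbols therefore reach farther before a gene than past it.

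Fgfrl1, the receptor without a kinase domain, had 2 chondrocyte peaks and no chondroprogenitor peak. The first, chr5:108692585-108693686, was 1102 bp wide and lay before the start. The second, chr5:108704606-108705760, was 1155 bp wide and lay 86.1% of the way along a gene of 12.7 kb (108694229 to 108706950). A further peak of 890 bp began 1.98 kb past the end and another of 1293 bp 11.9 kb past it, and neither carried a symbol. Both assigned peaks were wider than 91.0% of the chondrocyte list. The first also overlaps Gm42151, a long noncoding RNA gene that ends just before Fgfrl1.

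**Figure D2:**
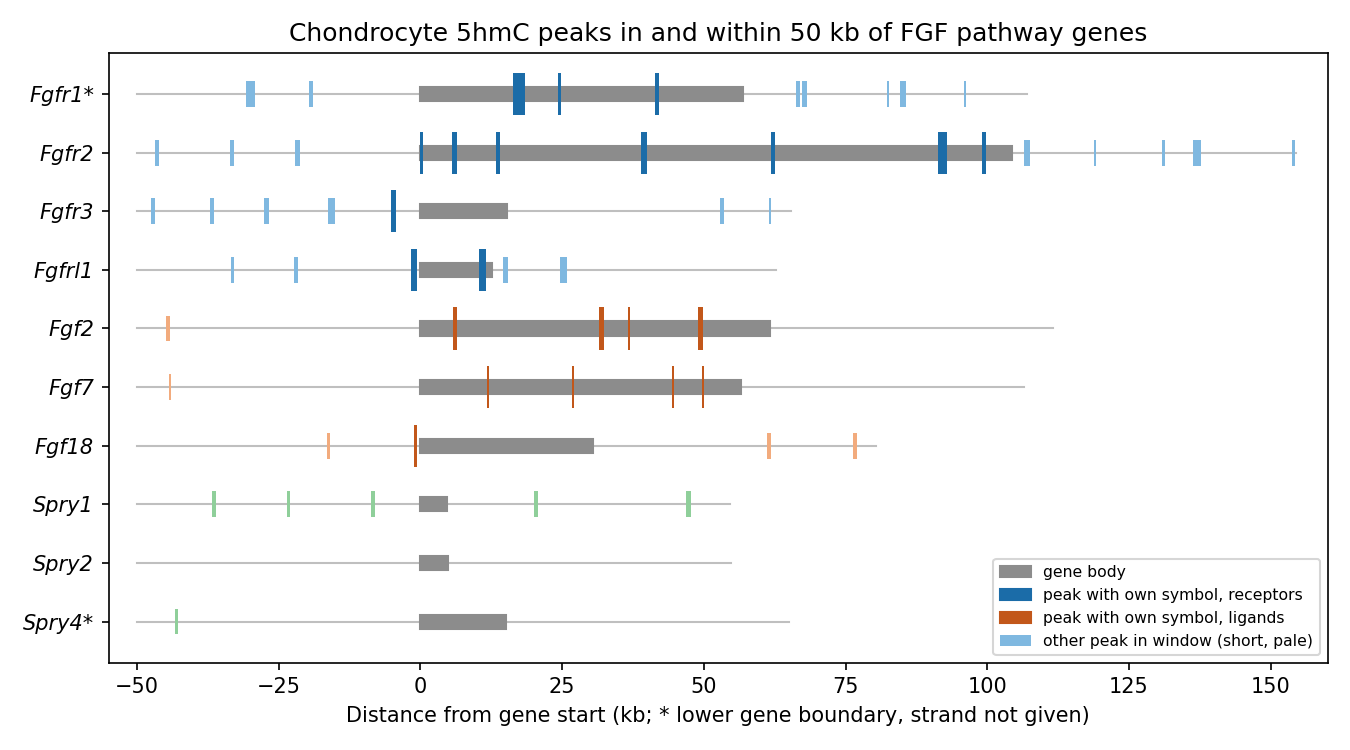
Chondrocyte 5hmC peaks (boxes, drawn to their width) in each gene and 50 kb on both sides, with distance from the gene start in kb on the horizontal axis (from the lower boundary for Fgfr1 and Spry4) and genes down the page. Tall dark boxes are peaks with the gene's own symbol and short pale boxes are other peaks. Receptors have peaks in the gene or just before it and on both sides, Fgf2 and Fgf7 have 4 each inside the gene, and Spry2 has none.

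Among the ligands, Fgf2 and Fgf7 had equal numbers in genes of similar length. Fgf2, basic FGF, had 4 chondrocyte peaks in 61.6 kb on chromosome 3 (37348477 to 37410106), with midpoints 6.05, 32.0, 36.8 and 49.4 kb past the start. Fgf7, also called keratinocyte growth factor, had 4 in 56.5 kb on chromosome 2 (126034658 to 126091185), at 12, 26.9, 44.5 and 49.9 kb. In the chondroprogenitor list each had 0. Having 4 or more peaks was seen in 33.8% of genes in the length decile of Fgf2 and in 14.6% in that of Fgf7. Fgf7 lies wholly within the span of Fam227b, so its 4 peaks lie in both genes, and the authors gave them the symbol Fgf7.

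The peaks of the 2 ligands differed in width. Those of Fgf7 were 381, 297, 315 and 338 bp wide in order along the gene. Those of Fgf2 were 726, 932, 520 and 934 bp wide, so the ranges did not overlap. The median chondrocyte peak was 591 bp wide, and only 10.9% of the list was narrower than the widest Fgf7 peak. The peak next to Fgf7, 43.9 kb before its start, was also narrow with 383 bp. Peak width depends on how the caller draws a peak and is not a measure of the amount of 5hmC, and peaks of 1 gene are not replicates.

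Fgf18, the ligand that acts through Fgfr3 in growth cartilage, had 1 chondrocyte peak, 568 bp wide, at chr11:33147987-33148554. It lay 0.587 kb before the start of the gene, a span of 30.4 kb on chromosome 11 (33116970 to 33147400), and no peak lay inside the gene. In the length decile of Fgf18 54.9% of genes had at least 1 peak. Fgf18 and its receptor Fgfr3 each had a single assigned peak, before the start, and an empty gene body. The peak lay 4.32 kb before the start of Fgfr3, farther out than that of Fgf18. By symbol, wherever the peak lay, 4019 other protein-coding genes had the same counts as each, 1 chondrocyte and 0 chondroprogenitor peaks. The likeness is therefore not particular to this pair. No chondroprogenitor peak was assigned to either.

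**Figure D3:**
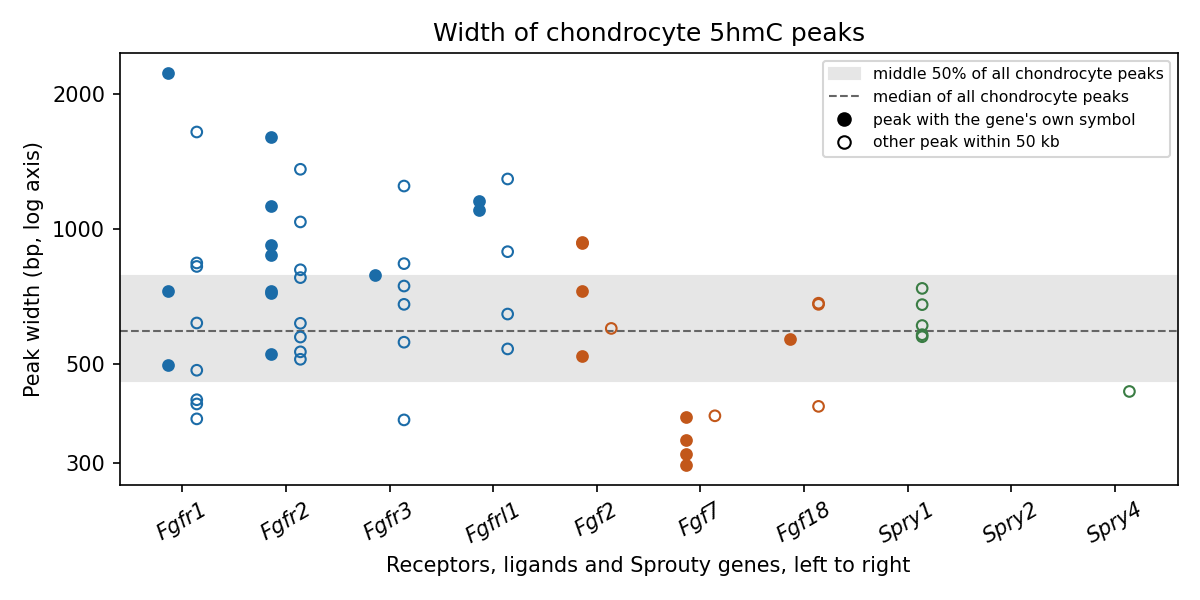
Width of each chondrocyte peak (vertical axis, bp, log scale) by gene, with filled points for peaks carrying the gene's own symbol and open points for others within 50 kb. The grey band is the middle 50% of all chondrocyte peaks (458 to 783.5 bp) and the dashed line their median of 591 bp. The 4 Fgf7 peaks lie below the band and both Fgfrl1 peaks lie above it.

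Receptor peaks had a median width of 873 bp (range 498 to 2233 bp) and 11 of 13 were at least as wide as the list median. Ligand peaks had a median of 520 bp (297 to 934 bp), and 3 of 9 were that wide, all of them in Fgf2. Over all 22 peaks the median was 727 bp, with an order-statistic 95% interval of 520 to 934 bp, and the list median was 591 bp. The interval treats the 22 peaks as independent, although they come from 7 genes, so it is no test against the list. Peaks in the gene bodies covered 5.79% of the receptor bases and 2.99% of the ligand bases. By gene the share was 9.08% for Fgfrl1, 6.09% for Fgfr2, 6.07% for Fgfr1 and 0 for Fgfr3. It was 5.05% for Fgf2, 2.35% for Fgf7 and 0 for Fgf18, so the roles overlapped.

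None of the Sprouty genes had a chondrocyte or chondroprogenitor peak by symbol, in the gene body or within 5 kb of it. They are short, with 4.65 kb for Spry1 on chromosome 3 (37639947 to 37644599), 4.87 kb for Spry2 on chromosome 14 (105891947 to 105896819) and 15.1 kb for Spry4 on chromosome 18 (38586247 to 38601347). Genes in the length decile of Spry1 and Spry2 had a chondrocyte peak in 24.7%, and those in the decile of Spry4 in 40.5%. An empty Sprouty gene is therefore the more common outcome at these lengths. The 3 genes differed in their surroundings. Spry1 had 5 chondrocyte peaks within 50 kb, 3 before the start and 2 past the end, all without a gene symbol. The nearest, chr3:37631269-37631877, ended 8.07 kb before the start, just beyond the 7.64 kb that 99% of the authors' assignments before a start stayed within. Spry4 had 1 peak, 42.8 kb below its lower boundary. Spry2 had no chondrocyte peak within 50 kb, and the nearest lay 78.4 kb past its end.

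The windows of 50 kb on both sides of each gene body gave another order. With the gene body included, Fgfr2 had 15 chondrocyte peaks, Fgfr1 had 11, Fgfr3 had 7 and Fgfrl1 had 6. Fgf2, Fgf7 and Spry1 had 5 each, Fgf18 had 4, Spry4 had 1 and Spry2 had 0. The median of all protein-coding genes was 3, and 3.42% of them had at least as many as Fgfr2. These windows grow with gene length, and the median was 6 in the length decile of Fgfr2 and 4 in that of Fgfr1. Of the 10 genes 9 had at least 1 peak in the window, against 75.6% of all protein-coding genes, and an empty window such as that of Spry2 was found in 24.4%. In the chondroprogenitor list all 10 windows were empty, against 5.69% of all protein-coding genes with a peak there. So no overlap between the lists could be counted here.

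**Figure D4:**
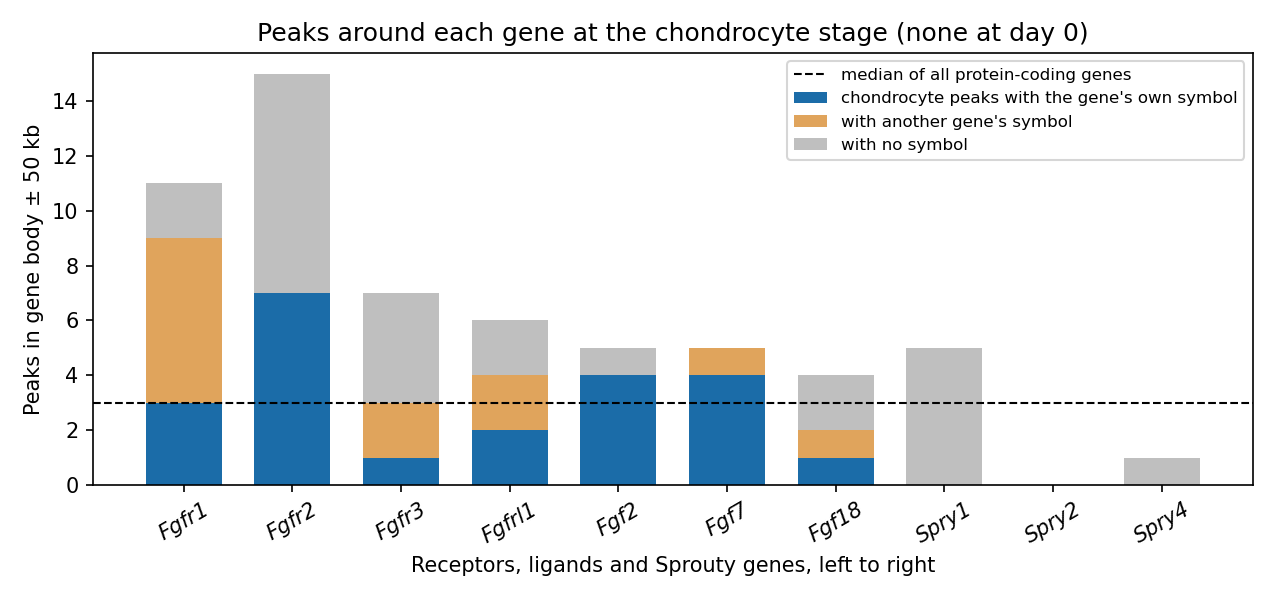
Number of chondrocyte peaks in each gene body and 50 kb on both sides (vertical axis), split into peaks with the gene's own symbol, another gene's symbol or none. The dashed line is the median of 3 over all protein-coding genes and does not allow for gene length. Fgfr2 has 15, of which 8 carry no symbol, and the 5 peaks around Spry1 carry none.

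Outside the gene bodies the receptors stood apart from the other roles by number. Their flanks held 28 chondrocyte peaks in 400 kb, which is 7 per 100 kb. The flanks of the ligands and those of the Sprouty genes held 6 each in 300 kb, or 2.00 per 100 kb, and the mean over all protein-coding genes was 2.83. Inside the gene bodies the receptors had 5.81 peaks per 100 kb and the ligands 5.38, against 3.0 over all protein-coding genes. So receptors and ligands were nearly equal within the gene and differed around it. Each of the 4 receptors had 5 to 8 flank peaks, while Fgf2 and Fgf7 had 1 each, Fgf18 had 4 and Spry1 had 5, so the roles overlapped gene by gene.

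The flank peaks had different owners. Around Fgfr2 all 8 were without a symbol, with 5 past the end, and the 3 before the start lay in the long noncoding RNA genes Gm33555 and Gm33607. Around Fgfr1, 6 of 8 were assigned to neighbours, 2 to Letm2 and 4 to Nsd3, which the list names Whsc1l1. Past the end of Fgfr3 both peaks were assigned to Letm1, and before Fgfrl1 there was 1 each for Dgkq and Slc26a1. The neighbour before Fgf18 was Npm1, with 1 peak. Of all 40 flank peaks 25 had no symbol and 15 had one, among them the peaks before Fgfr3, Fgfrl1 and Fgf18 that carried those genes' own symbols.

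Chondroprogenitor peaks were far from most of these genes. The nearest lay 56.7 kb past the end of Fgf7 and 96.0 kb before the start of Fgfr2. The next lay 252 kb from Spry4 and 682 kb from Fgfr1, and those of the other 6 genes lay between 988 and 3702 kb away. Within 500 kb on both sides 3 of 10 genes had a chondroprogenitor peak, against 32.1% of all protein-coding genes. They were Fgf7 with 2 and Fgfr2 and Spry4 with 1 each. In the chondrocyte list all 10 had one at that distance, against 91.2%. Fgfr2 had 72 chondrocyte peaks there, Fgfr1 had 62, Fgfr3 had 51 and Fgfrl1 had 13. Fgf7 had 49, Fgf2 had 42 and Fgf18 had 34, and Spry1 had 56, Spry4 had 27 and Spry2 had 8. The windows of Fgf2 and Spry1, genes 230 kb apart, overlap, so their counts share peaks. The median of all protein-coding genes was 31, so each role but the ligands had genes on both sides of it. The chondrocyte list is far longer than the chondroprogenitor list, so a difference in peak number between stages holds for genes in general and is not particular to these.

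Other genes of the pathway were counted in 5 lists with 46 members, all found in the gene table. By the authors' symbols 24 of them had a chondrocyte peak (52.2%, Wilson 95% interval 38.1 to 65.9%), against 43.9% of all protein-coding genes and an average of 51.7% in the same length deciles. In the chondroprogenitor list 1 had a peak, against 1.81%. The lists differed in their counts.

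Adaptors and effectors next to the receptor had a chondrocyte peak in 8 of 9 genes (88.9%, 56.5 to 98.0%), against 70.3% in the same length deciles. Frs2, the docking protein that FGF receptors phosphorylate, had 9, Gab1, another docking protein, had 7, and Cbl, a ubiquitin ligase, had 6. Frs3, a relative of Frs2 named after its values were seen, was the gene without one. Of the other feedback inhibitors 4 of 6 had a peak (66.7%, 30 to 90.3%), against 53.8% in the same length deciles. Il17rd, also called Sef, had 8 in 68.3 kb. Spred2 and Spred1, which hold back RAS and ERK signalling, had 7 in 99.6 kb and 3 in 61.2 kb. Dusp6, which encodes an ERK phosphatase in 4.26 kb, a span shorter than those of Spry1, Spry2 and Spry4, had 2 by symbol and 0 in the gene body. Spry3, with 9.56 kb, and Spred3, with 12.3 kb, had 0 by symbol and in the gene body. Spry3 was placed at 101352 to 110912, at the very end of chromosome X. Whether a peak could be listed there was not checked, so its count by position cannot be read as an absence. Dusp6, Spry3 and Spred3 are named after their values were seen.

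Of the other ligands 4 of 19 had a chondrocyte peak (21.1%, 8.51 to 43.3%), against 43.0% in the same length deciles. Fgf6 had 3, and Fgf1 and the bone hormone Fgf23 had 1 each, as did Fgf21, a metabolic hormone named after its values were seen. Fgf12, Fgf13 and Fgf14, named after their values were seen, encode FGF homologues that stay inside the cell and are known from neurons. They span 523 to 703 kb and had 0 peaks in the gene body and in the 50 kb around it, although 79.8% of genes in their length decile had a peak. All 3 count among the 19, so they lower the share with a peak and raise the length-decile share set beside it. Fgf9 and Fgf10, also named after their values were seen, had 0 in the gene. Of the other receptor, co-receptors and binding proteins 5 of 8 had a peak (62.5%, 30.6 to 86.3%), against 49.6% in the same length deciles, with 2 each for Kl, the co-receptor of Fgf23, and Fgfr4, and 1 for Flrt2. Of the transcription factors downstream 3 of 4 had a peak (75%, 30.1 to 95.4%), against 52.3% in the same length deciles, with 3 for Etv5, 2 for Egr1 and 1 for Etv4.

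**Figure D5:**
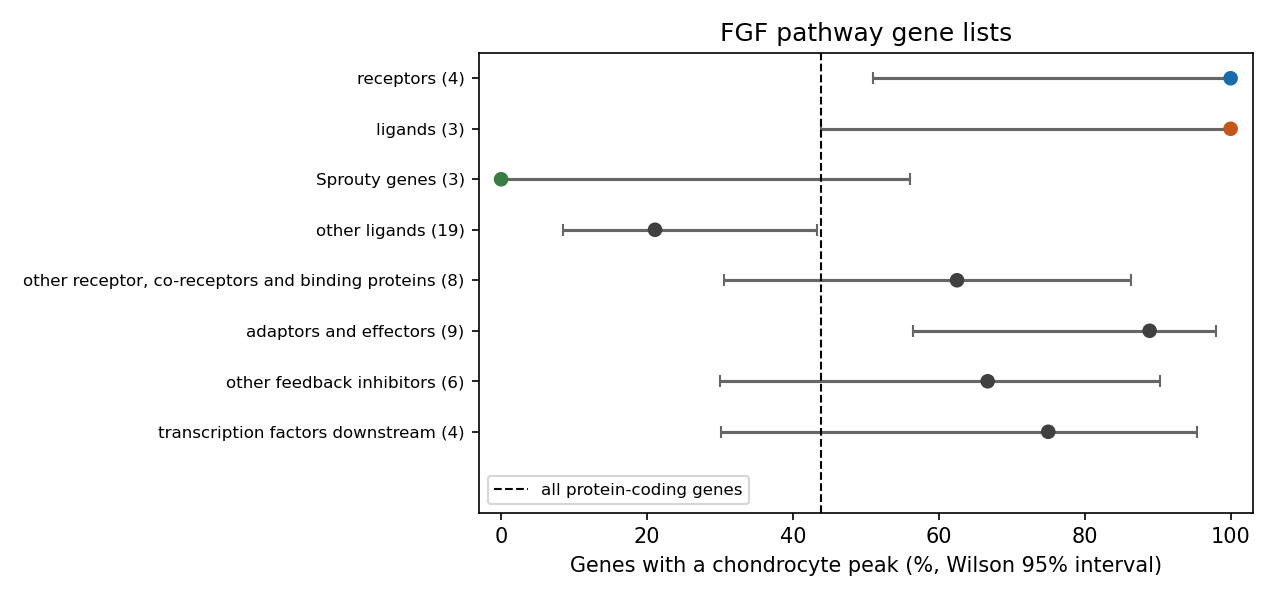
Share of genes with at least 1 chondrocyte peak by the authors' symbol (horizontal axis, percent) for the 3 roles and the 5 lists of other pathway genes, with gene numbers in brackets. Bars are Wilson 95% intervals and the dashed line is the 43.9% of all protein-coding genes. Receptors and ligands lie at 100% with 4 and 3 genes, Sprouty genes at 0% with 3, and other ligands at 21.1%. The genes and lists were chosen with earlier results of these data known, so differences between them are descriptive.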

How the data were processed

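5hmC was measured in 4 ATDC5 libraries, grouped by the stage in the labels. Per the file headers, the authors deposited 1 list per stage of peaks with a 10-fold enrichment in merged samples, so replicates could not be compared. The submitters' processing notes list FastQC, cutadapt, BWA, MACS 1.4.2 and GRCm38 (mm10) without a role or order. The sources used here do not say whether day 19 entered the chondrocyte list. Each deposited entry gave a start and an end in base pairs, read as 1-based, with a symbol and an accession. A 5mC capture named in the protocol was not analysed here. Of 56698 chondrocyte entries 3 had no readable end and were left out.

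Peaks were taken by symbol for the 10 genes, and by accession, then symbol, for all genes (99.95% of chondrocyte and 98.86% of chondroprogenitor symbols matched). Positions came from RefSeq genes of GRCm38.p6, which gave no exons, so exon and intron were not used. Peaks overlapping by at least 1 bp counted. The rule for other named genes took up to 3 per list with the most chondrocyte peaks, ties by length, and any with a chondroprogenitor peak. The genes and lists were chosen with earlier results of these data known. Counting was checked on simulated data, and planted peaks in 200 of 200 genes were found. Alternatives covered assignment, flank, width, merging and overlap. Python 3.11.15, numpy 2.4.6, pandas 2.3.3 and matplotlib 3.10.9 were used.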

Additional observations from a re-analysis of the deposited data

How the results depend on the processing

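No paired analysis was possible because each list merged the libraries of its stage, and no replicate could be left out for the same reason. Of 40 recomputed values over the set, 33 stayed within 1.5 times the reported count or inside the interval of the median width. Some of the 33 could not have moved. A count of 0 stays 0 when peaks are filtered by width or merged, or when the flank is shortened. With no chondroprogenitor peak in the windows, the rules for sharing could only give 0. With peaks at least as wide as the median of their list, the peaks assigned to the 10 genes numbered 14 in place of 22, those of the ligands 3 in place of 9, and those within 50 kb 36 in place of 59. That filter shortens any list by its rule, so lower counts follow from it. Without Fgfr2 the receptors had 6 peaks in place of 13. With flanks of 20 kb the windows held 33 chondrocyte peaks and with 100 kb 99, and at 100 kb 2 chondroprogenitor peaks entered them, both of which follow from the window size. By overlap with the gene body, 5 of the 10 genes had a chondrocyte peak in place of 7, since those of Fgfr3 and Fgf18 lie before the start. The Sprouty genes stayed at 0 assigned peaks under all 4 alternatives run for them, of which the width filter and merging could not change a count of 0. For the other pathway genes, overlap with the gene body gave 22 genes in place of 24, an alternative chosen after seeing the data. Read depth was not given in the sources used here, and its bearing on list length was not tested.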

Other observations

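On chromosome 18 the only chondroprogenitor peak assigned to any of the FGF genes counted here lay in Fgf1, a ligand that binds all FGF receptors. It was 149 bp wide, at chr18:38853002-38853150, and the nearest chondrocyte peak, which carried the symbol Fgf1, began 24.7 kb above it. This was also the chondroprogenitor peak nearest to Spry4, 252 kb away. Fgf1 held 4 chondrocyte peaks by position, of which the authors assigned 1 to Fgf1 and 3 to Gm5820. Flrt1, which encodes a membrane protein that binds FGF receptors, held 10 chondrocyte peaks by position and 0 by symbol, since the authors assigned all 10 to Macrod1. Fgf1 came under the rule for named genes, and Flrt1 was chosen after its values were seen.

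Fgf2 and Spry1 lie 230 kb apart on chromosome 3, and the stretch between them held 4 chondrocyte peaks, of which 1 was assigned to Spata5 and the other 3 were the unassigned ones before Spry1.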
